A study of Mus musculus with 16 samples.

Results

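The protein genes of the 2 ribosomes of the mouse cell were compared in monocytes of the neonatal spleen. The members were the 167 rows of the RNA count table, of 25562 in all, whose gene symbol named a ribosomal protein. There were 89 genes of the cytosolic ribosome (53 of the large and 36 of the small subunit) and 78 of the mitochondrial ribosome (49 large, 29 small). Rows marked as pseudogenes and the S6 kinases, whose symbols begin alike, were left out. Both groups were wild-type C57BL/6 mice aged 7 days, with no treatment stated: splenic monocytes sorted for high Nrp1 at the surface (neuropilin-1, which binds semaphorins and VEGF) and monocytes sorted for low Nrp1. RNA was read from 3 libraries of each group, of 80000 cells each, and open chromatin by ATAC-seq from 5 samples of each, of 50000 cells each. The labels also call these cells myeloid-derived suppressor cells, and they mention pooled RNA without saying whether libraries came from separate animals, so a p-value here speaks of the spread between libraries, which may be technical.

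The cytosolic ribosome translates the messages of the nucleus. Its proteins are made in near equal amounts, and most of their messages begin with a terminal oligopyrimidine (TOP) tract, a run of C and T at the 5′ end through which mTORC1 and the repressor Larp1 set their translation. The mitochondrial ribosome translates the few messages of the mitochondrial genome. Its proteins are encoded in the nucleus and imported, while its ribosomal RNAs, mt-Rnr1 and mt-Rnr2, are made inside the organelle.

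Total counts were 23395363 to 35127433 per library, and correlations of log2 CPM (the depth-scaled count, at library sizes adjusted by TMM) between libraries were 0.859 to 0.954. Libraries stood apart within both groups. Nrp1 low replicate 1 lay at 133.3 on the first principal component (49.0% of the variance), and the other 5 libraries lay between -71.1 and 22.8. Nrp1 high replicate 1 had the lowest correlation with it. The sorted gene, Nrp1, had 97.3, 89.8 and 111.4 CPM in the Nrp1 high libraries, against 20.1, 57.8 and 41.5 CPM in the Nrp1 low libraries. The groups did not overlap for Nrp1 (log2 difference 1.32 ± 0.36 SE, edgeR quasi-likelihood adjusted p = 0.259, exact permutation p = 0.1, the smallest that 3 against 3 allows). Of 11 monocyte genes, such as Csf1r and Ly6c2, 0 passed the test and the median log2 difference was -0.02. Single genes ran from -0.62 to 0.81, with 5 above 0 and 6 below. Their summed level was 26478, 35778 and 27172 CPM in Nrp1 high, against 48574, 32004 and 45525 CPM in Nrp1 low, with overlapping groups.

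Promoter sequences from RefSeq (GRCm38.p6; 250 bases before to 50 after a start) were matched to 64 of 89 cytosolic genes (76 promoters) and 69 of 78 mitochondrial genes (75 promoters). They are shown because the start of the message is where the 2 families differ. The 30-base windows hold the 10 bases before the annotated start and the 20 from it on, and capitals mark a run of at least 8 C or T that overlaps the 10 bases on either side of the start. The first 5 windows are cytosolic, the last 3 mitochondrial, and Rpl27a, Rpl7a, Rpl28 and Rpl35 were chosen after their values were seen. Their positions are chr10:23787190-23787219 (minus strand) for Rps12, chr7:109519185-109519214 (plus) for Rpl27a, chr2:26910797-26910826 (plus) for Rpl7a, chr7:4792955-4792984 (plus) for Rpl28, chr2:39005112-39005141 (minus) for Rpl35, chr11:59202476-59202505 (plus) for Mrpl55, chr2:24975079-24975108 (minus) for Mrpl41 and chr1:42851223-42851252 (plus) for Mrps9.
Rps12: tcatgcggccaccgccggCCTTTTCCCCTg
Rpl27a: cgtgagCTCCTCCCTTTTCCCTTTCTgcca
Rpl7a: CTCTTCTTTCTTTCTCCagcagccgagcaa
Rpl28: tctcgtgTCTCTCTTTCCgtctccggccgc
Rpl35: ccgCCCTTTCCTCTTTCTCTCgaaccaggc
Mrpl55: tgcgctccgtggcgtcatcaccgcgcgccg
Mrpl41: ttgggcgccctggtgaccagtcggcgaggc
Mrps9: ggtctgcgcctgcgcagtctccaggctcca

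Such a run lay at 31 of 76 cytosolic starts (40.8%, Wilson 95% interval 30.4 to 52.0) and at 9 of 75 mitochondrial starts (12%, 6.44 to 21.3). Of all 32841 promoters 13.7% had one. On the opposite strand the shares were 5.26% of cytosolic, 9.33% of mitochondrial and 15.1% of all promoters. The mitochondrial share on the sense strand was close to that of all promoters, and the cytosolic share was above it. Within 30 bases of the start the shares were 65.8%, 30.7% and 27.3%.

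Both families held elements known from promoters of housekeeping and nuclear-encoded mitochondrial genes, searched on both strands as exact letters. The ETS element CCGGAAG, bound by GABPA, was in 35.5% of cytosolic and 34.7% of mitochondrial promoters, against 8.86% of all. The YY1 element AAGATGGC was in 10.5% (8 of 76) and 16% (12 of 75), against 2.75% of all. Overlapping promoters of a gene were counted separately, so the same YY1 site of Rpl35a and the same ETS sites of Rps21 were counted more than once. The NRF1 element GCATGCGC, which overlaps its own reverse complement, was in 3.95% and 10.7%, against 2.71% of all. The windows below show the ETS element (Mrpl33 and Mrps33, named by rule) and the YY1 element (Mrpl35, chosen after its letters were seen) in mitochondrial promoters, with that match in capitals. The NRF1 element is not marked, although the lower-case letters of the Mrpl33 window also hold it on the opposite strand. They lie at chr5:31613937-31613966 (plus strand) for Mrpl33, chr6:39810887-39810916 (minus, the element on the opposite strand) for Mrps33 and chr6:71823743-71823772 (minus) for Mrpl35.
Mrpl33: ccgcgcatgccCCGGAAGtagtcgttgagc
Mrps33: aagtaaaggggggcgggcCTTCCGGggacg
Mrpl35: aggcaggctgcAAGATGGCggcttccatct

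The first comparison set the 2 ribosomes against each other in each library. Messages of the cytosolic ribosome took 6.55, 3.15 and 4.69% of the counts in the Nrp1 high libraries, against 2.33, 3.22 and 3.76% in the Nrp1 low libraries. Nrp1 high replicates 1 and 3 lay above every low library, Nrp1 high replicate 2 lay inside the low range, and the groups overlapped. The mean share was 4.80 ± 1.70% in Nrp1 high and 3.10 ± 0.72% in Nrp1 low (SD, n = 3 each). Messages of the mitochondrial ribosome took 0.518, 0.569 and 0.499% in the Nrp1 high libraries, against 0.598, 0.474 and 0.595% in the Nrp1 low libraries. These were 0.529 ± 0.036% in Nrp1 high and 0.556 ± 0.071% in Nrp1 low (SD, n = 3 each), with overlapping groups. The Wilson 95% intervals of single libraries were at most 0.0181 percentage points wide for the cytosolic and 0.00581 for the mitochondrial share, and they cover counting error only.

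The 2 ribosomes differed in how far the libraries spread. From the lowest to the highest library the cytosolic share spanned 2.81-fold and the mitochondrial share 1.26-fold. The ratio of cytosolic to mitochondrial counts was 12.6, 5.54 and 9.41 in the Nrp1 high libraries, against 3.90, 6.78 and 6.31 in the Nrp1 low libraries. The ratio averaged 9.20 ± 3.56 in Nrp1 high and 5.66 ± 1.55 in Nrp1 low (SD, n = 3 each). Its highest value was in Nrp1 high replicate 1 and its lowest in Nrp1 low replicate 1, and Nrp1 high replicate 2 lay below 2 of the 3 low libraries.

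**Figure D1:**
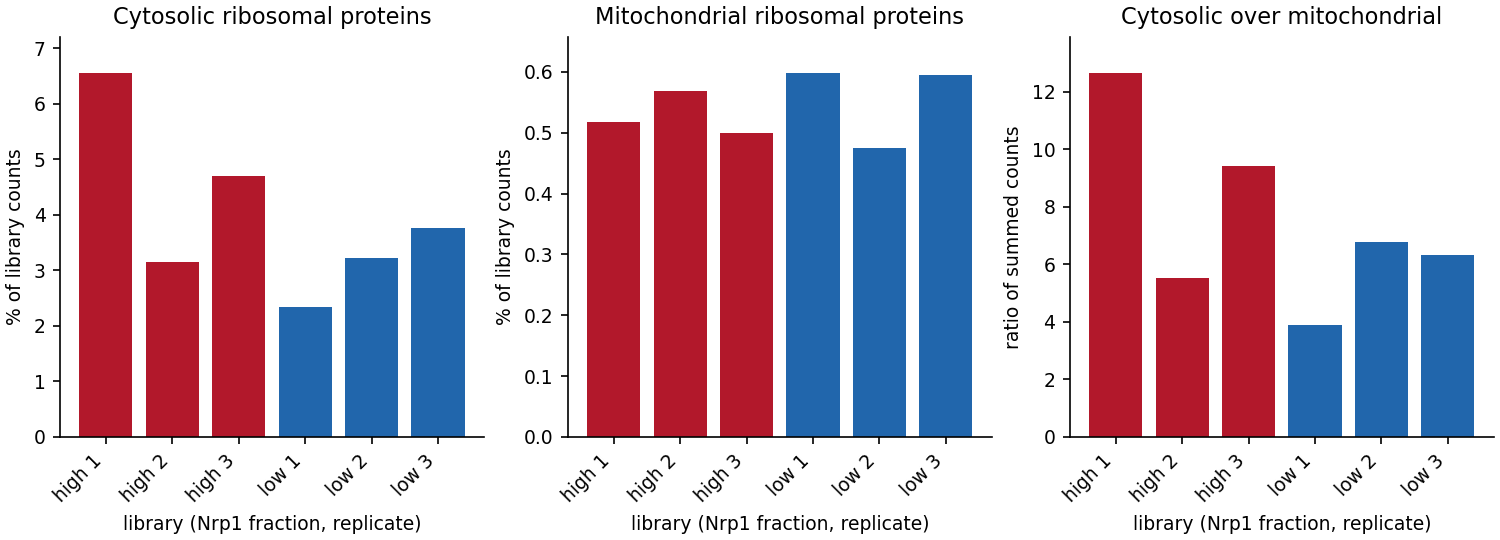
Bars give, for each of the 6 RNA libraries, the percent of counts in cytosolic (left) and mitochondrial (middle) ribosomal protein genes and the ratio of the 2 sums (right); Nrp1 high libraries are red and Nrp1 low libraries blue. The cytosolic share runs from 2.33 to 6.55% while the mitochondrial share stays between 0.474 and 0.598%.

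Within the cytosolic ribosome the subunits moved together across libraries. The counts of large over small subunit genes stood at 1.44, 1.45 and 1.45 in the Nrp1 high libraries, against 1.48, 1.45 and 1.45 in the Nrp1 low libraries. The same ratio of the mitochondrial ribosome was 2.11, 1.98 and 2.08 in the Nrp1 high libraries, against 1.99, 2.03 and 1.85 in the Nrp1 low libraries. Rows marked as ribosomal protein pseudogenes, 200 in all, which share sequence with the cytosolic genes and could take reads from them, held 0.126, 0.0639 and 0.1% of counts in Nrp1 high, against 0.0439, 0.0628 and 0.0710% in Nrp1 low. With these rows added, the mean cytosolic share differed by 1.73 percentage points between the groups, against 1.70 without them.

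The order of libraries was shared by most members of a ribosome. Of the 88 cytosolic genes tested, 78 were highest in Nrp1 high replicate 1 and 62 were lowest in Nrp1 low replicate 1. Of the 78 mitochondrial genes, 38 were highest in Nrp1 low replicate 1 and 30 in Nrp1 low replicate 3, and their lowest library was Nrp1 low replicate 2 for 24, Nrp1 high replicate 1 for 23 and Nrp1 high replicate 3 for 23. Within the Nrp1 high group, 87 of 88 cytosolic genes were higher in replicate 1 than in replicate 2, with a median log2 difference of 1.08. For the mitochondrial genes 21 of 78 were higher there, with a median of -0.14. The span from the lowest to the highest library passed 3-fold for 30 cytosolic genes and 1 mitochondrial gene, Mrps30. The median span was 2.495-fold for the cytosolic and 1.738-fold for the mitochondrial genes, beside 2.412-fold for all 15541 genes tested. By this measure the cytosolic genes lay near the background and the mitochondrial genes below it, with genes not matched for level.

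**Figure D2:**
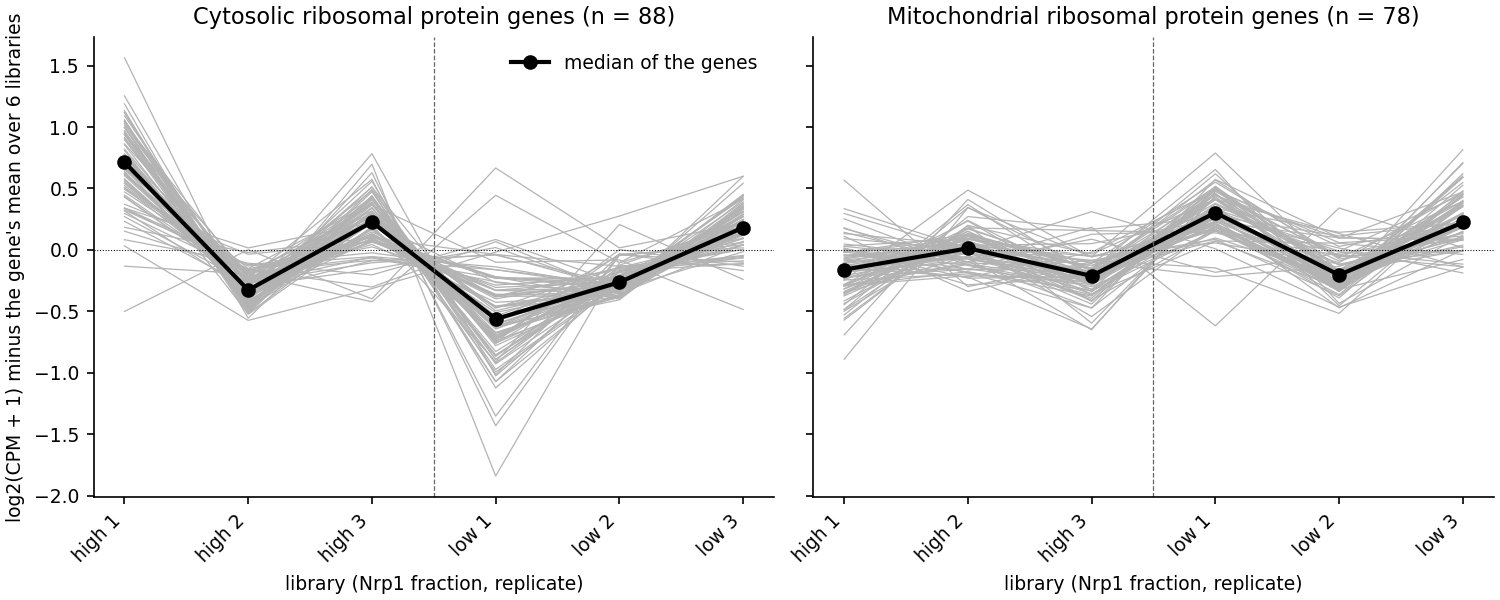
Each grey line is 1 gene and gives log2(CPM + 1) in the 6 libraries minus the gene's own mean, for 88 cytosolic (left) and 78 mitochondrial (right) genes; black points are the median over genes, and the dashed line parts Nrp1 high (left of it) from Nrp1 low. Most cytosolic lines peak in Nrp1 high replicate 1 and dip in Nrp1 low replicate 1, and the mitochondrial lines span less.

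The second comparison asked which members differed between Nrp1 high and Nrp1 low monocytes, with edgeR's quasi-likelihood test over 15541 genes. Of the members 166 passed the filter on low counts. Rpl39l, a paralog of Rpl39 known for its expression in testis, did not pass it, with 4, 0 and 14 counts in Nrp1 high and 17, 7 and 3 counts in Nrp1 low. None of the 88 cytosolic and none of the 78 mitochondrial genes passed an adjusted p of 0.05 in either direction, beside 0.00643% of all genes higher and 0.676% lower in Nrp1 high. The lowest adjusted p was 0.431 among the cytosolic and 0.385 among the mitochondrial genes. At an unadjusted p under 0.05 there were 1 higher and 1 lower cytosolic and 0 higher and 5 lower mitochondrial genes, beside 699 higher and 1045 lower of all 15541 genes, so the mitochondrial count was near the background. DESeq2 and limma-voom also called 0 members.

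The median log2 differences of the 2 families had opposite signs under every scaling run, though with library totals in place of TMM the mitochondrial median was -0.10 and the median of all genes 0.20. The median was 0.45 over the cytosolic genes (quartiles 0.26 and 0.67), with 79 above 0 and 9 below, and -0.29 over the mitochondrial genes (quartiles -0.39 and -0.19), with 9 above 0 and 69 below. Over all genes tested the median was 0.01, with 7861 above 0 and 7680 below. The cytosolic median was 0.48 for the large and 0.41 for the small subunit, and the mitochondrial median was -0.30 for the large and -0.27 for the small subunit. These are descriptions without a test, and genes of 1 ribosome are not replicates of a condition.

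**Figure D3:**
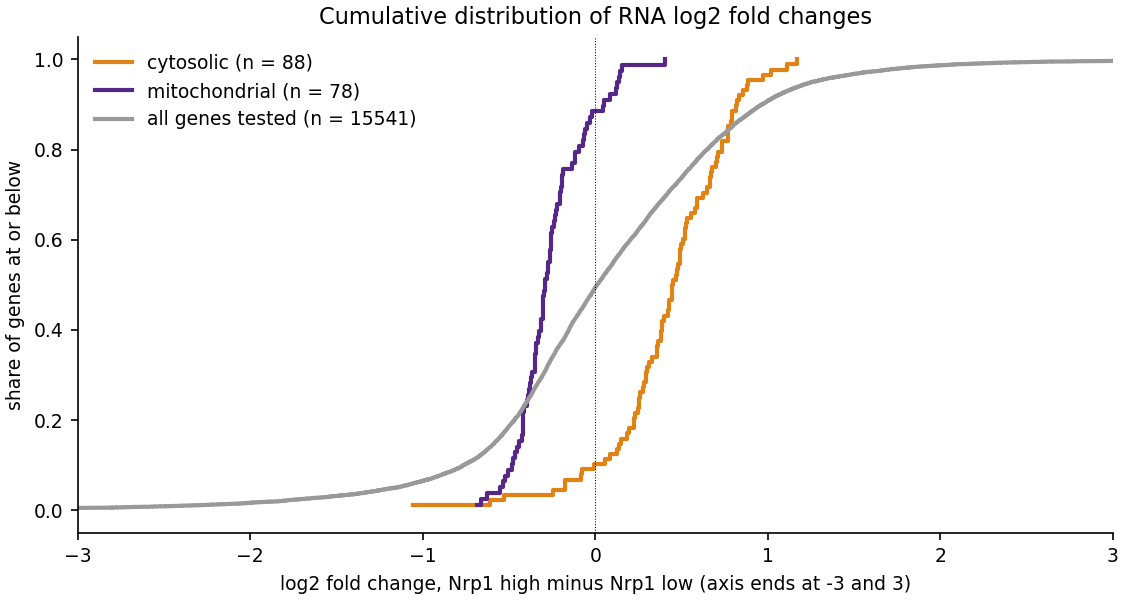
Curves give the share of genes (y axis) at or below each log2 fold change of Nrp1 high minus Nrp1 low (x axis) for 88 cytosolic, 78 mitochondrial and all 15541 genes tested. The cytosolic curve lies to the right of 0 (median 0.45) and the mitochondrial curve to the left (median -0.29).

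The sizes rested on single libraries. Without Nrp1 high replicate 1 the cytosolic median was 0.12, without Nrp1 low replicate 1 it was 0.29, and without Nrp1 high replicate 2 it was 0.71. With both first replicates left out, an alternative chosen after seeing the data, it was -0.01, with 42 of 88 genes above 0. The mitochondrial median was -0.15 in that fit, with 59 of 78 genes below 0. It lay between -0.44 and -0.17 when 1 library was left out.

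**Figure D4:**
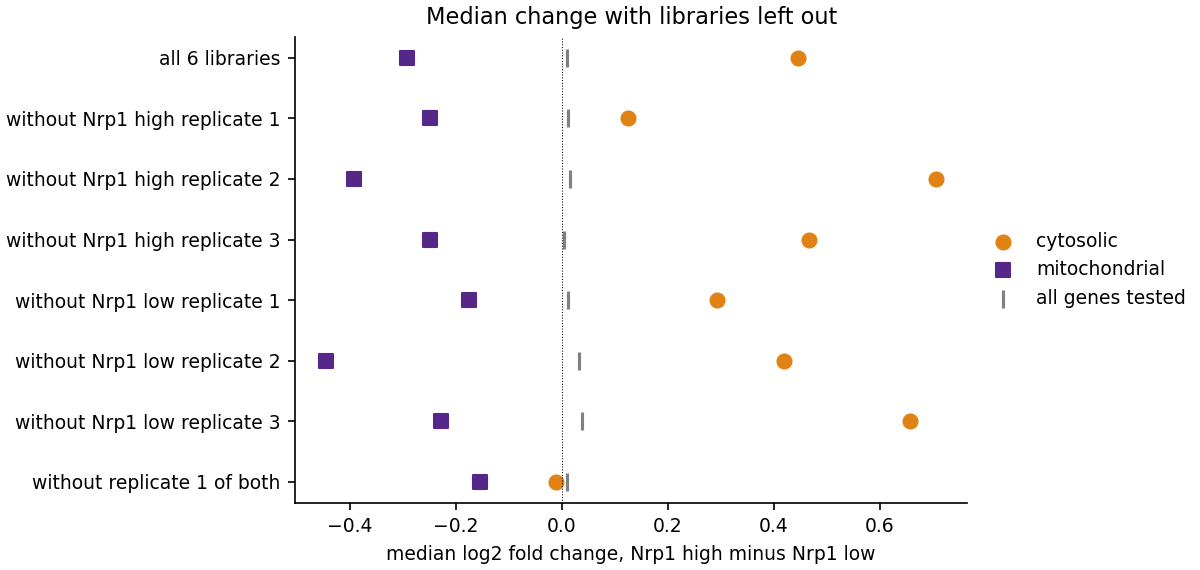
Points give the median log2 fold change of Nrp1 high minus Nrp1 low (x axis) over cytosolic genes (orange circles), mitochondrial genes (purple squares) and all genes tested (grey ticks) with the libraries named on the y axis left out. The cytosolic median goes to -0.01 without both first replicates, and the mitochondrial median stays below 0.

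In the small subunit, Rps12 spanned the libraries most, by 10.7-fold. Rps12 (ENSMUSG00000061983), whose start window with its pyrimidine run is printed above, had 903.5, 214.0 and 494.8 CPM in the Nrp1 high libraries, against 84.3, 283.3 and 348.3 CPM in the Nrp1 low libraries. Nrp1 high replicate 2 lay below 2 of the low libraries, and the groups overlapped (log2 difference 1.17 ± 0.61 SE, edgeR adjusted p = 0.457). Rpsa, a small subunit protein also known as the laminin receptor, had 1998, 833.5 and 1457 CPM in Nrp1 high, against 382.6, 955.2 and 990.1 CPM in Nrp1 low. Rps2, which lies near the messenger RNA entry channel, had 1641, 776.2 and 1210 CPM in Nrp1 high, against 494.0, 819.1 and 862.7 CPM in Nrp1 low. Rps4x, the X-linked small subunit gene, had 1144, 420.3 and 792.3 CPM in Nrp1 high, against 274.4, 540.6 and 517.8 CPM in Nrp1 low. All of these had the same shape, with Nrp1 high replicates 1 and 3 above the low libraries and Nrp1 high replicate 2 among them. The log2 differences were 0.88 for Rpsa, 0.74 for Rps2 and 0.82 for Rps4x.

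In the large subunit, the stalk proteins recruit the translation factors. Rplp0, the base of the stalk, spanned 2.02-fold, against a median of 2.62-fold for the tested large subunit genes. It had 2300, 1374 and 1912 CPM in the Nrp1 high libraries, against 1139, 1434 and 1587 CPM in the Nrp1 low libraries. Its partners Rplp1 and Rplp2 had log2 differences of 0.50 ± 0.32 and 0.52 ± 0.30, beside 0.43 ± 0.25 for Rplp0 (SE). Rpl5, which carries 5S ribosomal RNA into the large subunit, had 1371, 455.5 and 887.0 CPM in Nrp1 high, against 339.8, 555.1 and 603.2 CPM in Nrp1 low. Rpl39, a short protein of the exit tunnel and the cytosolic gene with an unadjusted p under 0.05 that was higher in Nrp1 high, had 204.9, 86.9 and 140.2 CPM in Nrp1 high, against 61.7, 83.8 and 104.1 CPM in Nrp1 low. For both, Nrp1 high replicate 2 lay inside the low range. Rpl3, near the peptidyl transferase centre, had a log2 difference of 0.59 ± 0.29, Rpl10, which joins late in assembly, 0.53 ± 0.32, Rpl7 0.71 ± 0.34 and the RNA-binding protein Rpl22 0.83 ± 0.43 (SE).

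Some large subunit genes varied less. Rpl13 had 1447, 1056 and 1113 CPM in Nrp1 high, against 1050, 934.6 and 1430 CPM in Nrp1 low, a span of 1.55-fold. Its log2 difference was 0.08 ± 0.24 (SE) and turned below 0 without Nrp1 high replicate 1 or without Nrp1 low replicate 2. Rpl35, with the long pyrimidine run printed above, had 918.5, 739.3 and 670.1 CPM in Nrp1 high, against 865.8, 646.1 and 1253 CPM in Nrp1 low (log2 difference -0.25). Rpl38, known for its part in the translation of Hox messages in mouse embryos, had a log2 difference of -0.01 and, like Rpl35, was picked after its values were seen. The 30 cytosolic genes tested with a run within 10 bases of a start had a median log2 difference of 0.37 and spanned a median of 2.08-fold, against 0.44 and 2.5-fold for the 33 without.

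Of the 11 paralog members tested 6 were above 0 and 5 below, and of the 77 other cytosolic genes 73 were above and 4 below, a difference that was not tested. Among those 5, Rpl36al and Rps27l lay above 0 (0.033 and 0.029) with library totals in place of TMM, and also without Nrp1 low replicate 3. Rpl7l1, whose human counterpart is found on precursors of the large subunit, had 95.1, 135.1 and 102.2 CPM in the Nrp1 high libraries, against 214.9, 136.6 and 156.9 CPM in the Nrp1 low libraries. The groups did not overlap, though 1 high and 1 low library were nearly level (log2 difference -0.61 ± 0.24 SE, edgeR adjusted p = 0.431). Rps4l had 39.9, 38.2 and 32.5 CPM in Nrp1 high, against 60.0, 40.8 and 58.6 CPM in Nrp1 low, again without overlap (-0.53 ± 0.23, edgeR adjusted p = 0.445). Here too the highest Nrp1 high and the lowest Nrp1 low library were nearly level. Of the cytosolic genes, Rpl7l1 and Rps4l were the 2 whose Nrp1 high libraries all lay below the low ones, beside 10.8% of all genes. Rpl32l, at under 1 CPM in every library and named after its values were seen, was the 1 that lay above, beside 9.51% of all genes.

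Other paralog pairs gave mixed values. Rpl22l1 had a log2 difference of 0.27 ± 0.30, beside 0.83 for its parent Rpl22. Rps27l, a p53 target in human cells, had -0.18 ± 0.22, beside -0.09 ± 0.25 for Rps27. Rpl36al had -0.18 ± 0.27, beside 0.44 ± 0.32 for Rpl36a (all SE). Rpl3l, the striated muscle form of Rpl3, was near 1 CPM, with 1.22, 0.459 and 0.745 CPM in Nrp1 high, against 1.14, 1.63 and 2.29 CPM in Nrp1 low. Rps3a2 (1.02 ± 0.45) and Rps12l1 (1.11 ± 0.69) were at most 18.3 and 4.95 CPM in any library. The deposited counts do not say how reads shared between near-identical copies were split, so the values of these paralogs are uncertain.

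In the mitochondrial ribosome, 10 of 78 genes had all Nrp1 high libraries below all Nrp1 low libraries and 0 had them above. Of all genes 10.8% lay below and 9.51% above, so the count below was near the background. None of the 10 passed the test. Mrpl55 (ENSMUSG00000036860), a large subunit protein found in animal mitochondria, had 34.3, 32.4 and 23.9 CPM in the Nrp1 high libraries, against 51.9, 40.7 and 53.0 CPM in the Nrp1 low libraries. This was the lowest p of the family (log2 difference -0.68 ± 0.24 SE, edgeR adjusted p = 0.385, exact permutation p = 0.1). Mrpl19 had 52.0, 53.9 and 51.5 CPM in Nrp1 high, against 78.4, 68.4 and 72.2 CPM in Nrp1 low (-0.48 ± 0.18). The high libraries of Mrpl19 lay close to each other and clear of the low ones. Mrpl41 had 39.0, 44.0 and 36.8 CPM in Nrp1 high, against 60.5, 47.4 and 66.0 CPM in Nrp1 low (-0.54 ± 0.21). Mrps9, of the small subunit, had 41.4, 43.9 and 43.5 CPM in Nrp1 high, against 71.8, 51.9 and 59.0 CPM in Nrp1 low (-0.51 ± 0.20). The other 6 without overlap were Mrpl44, with a fold related to ribonuclease III (-0.52), Mrpl53, Mrpl45, which tethers the ribosome to the inner membrane, Mrps2, Mrpl14 and Mrps31. All of these but Mrpl44 are named here after their values were seen. For Mrpl53, Nrp1 high replicate 2 and Nrp1 low replicate 2 were nearly level (30.0 and 30.1 CPM).

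Further mitochondrial members overlapped. Mrps33, whose ETS element is printed above, had 62.3, 67.5 and 58.7 CPM in the Nrp1 high libraries, against 105.2, 61.5 and 125.1 CPM in the Nrp1 low libraries. Mrps34 had 78.5, 133.2 and 76.4 CPM in Nrp1 high, against 156.9, 94.5 and 204.9 CPM in Nrp1 low. In both genes the 1 low library inside the high range was replicate 2. Mrpl47 had the largest log2 difference above 0 in the family (0.40 ± 0.23 SE), with 41.8, 33.6 and 42.3 CPM in Nrp1 high, against 34.1, 24.3 and 30.7 CPM in Nrp1 low. Mrpl24 (0.15) and Mrpl38 (0.14) were the next, and both went below 0 when 1 library was left out. Of Mrpl18, Mrpl28 and Mrpl33, named for their high CPM, the log2 differences were -0.29 ± 0.21, -0.22 ± 0.28 and -0.19 ± 0.21 (SE).

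The RNAs made inside the mitochondrion include the ribosomal RNAs of the organelle. The ribosomal RNA mt-Rnr2 had 6470, 2448 and 5144 CPM in the Nrp1 high libraries, against 675.9, 2866 and 1776 CPM in the Nrp1 low libraries. The smaller mt-Rnr1 had 1480, 530.2 and 1147 CPM in Nrp1 high, against 139.1, 611.6 and 368.4 CPM in Nrp1 low. Both had Nrp1 high replicate 1 highest and Nrp1 low replicate 1 lowest, as the cytosolic sum did, with log2 differences of 1.40 ± 0.54 and 1.5 ± 0.55 (SE; edgeR adjusted p = 0.428 and 0.412). Of 13 mitochondrial messages 0 passed the test, 12 were above 0, and the median was 0.63. The complex I genes mt-Nd2 (1.19), mt-Nd5 (0.98) and mt-Nd6 (1.25) had the lowest p. The 1 below 0 was mt-Atp8, picked for that, which was highest in Nrp1 low replicate 1 and lowest in Nrp1 high replicate 1 (-0.22). The messages took 2.11, 0.965 and 1.66% of counts in Nrp1 high, against 0.704, 1.20 and 0.903% in Nrp1 low.

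Other genes of translation were described from lists. Of 20 elongation factors and other TOP genes 0 passed the test, 18 were above 0 and the median log2 difference was 0.49. Rack1, a scaffold on the small subunit, had 1770, 784.1 and 1319 CPM in Nrp1 high, against 435.5, 898.3 and 903.5 CPM in Nrp1 low. The RNA-binding protein Hnrnpa1 (0.75) and the elongation factor Eef1g (0.57) had the lowest p in that list. Fau, which encodes a ribosomal protein fused to a ubiquitin-like part and so has another symbol, had a log2 difference of 0.41 ± 0.35 (SE). Of 29 initiation factors 0 passed and the median was -0.14. Eif2b3, of the exchange factor for eIF2, had -0.79, Eif2b1 -0.50 and Eif3a 0.71.

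Genes that build ribosomes gave no called member. Of 57 biogenesis genes 0 passed, 21 were above 0 and 36 below, and the median was -0.18. Among them Wdr12, of the PeBoW complex, had -0.75, Rrp12 0.92 and Nop56, of box C/D ribonucleoproteins, -0.55. The 25 genes of RNA polymerases I and III and their factors had a median of 0.00 and 0 called, with Taf1d at 0.69, Taf1b at -0.54 and the polymerase III repressor Maf1 at -0.52. Of 15 genes of ribosome quality control 0 passed, 12 were above 0 and 3 below, and the median was 0.64. Their summed level was 2632, 1469 and 2138 CPM in Nrp1 high, against 1015, 1599 and 1717 CPM in Nrp1 low. Nrp1 high replicate 2 lay inside the low range. Hbs1l, a rescue factor, had -0.54 and the stress kinase Eif2ak4 0.84.

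On the mitochondrial side, 25 assembly factors had 20 genes below 0, 0 called and a median of -0.27. Fastkd2, which binds mt-Rnr2, had 10.7, 12.5 and 8.65 CPM in Nrp1 high, against 23.5, 16.6 and 16.2 CPM in Nrp1 low (-0.82 ± 0.28 SE, edgeR adjusted p = 0.385). Its groups did not overlap. Mrm2, a methyltransferase of that RNA, had -0.66 and Chchd1, a small subunit protein named outside the Mrps series, -0.43. Dap3 and Ptcd3, small subunit proteins with other names, had -0.14 and -0.27. The 17 genes listed for mitochondrial translation, not all of them translation factors, had a median of -0.14 and 0 called. The 3 of lowest p, none of them a translation factor, were Trmt10c at -0.59, Hsd17b10 at -0.33 and Oxa1l at 0.40. The 13 genes of mitochondrial DNA expression had a median of 0.09 and 0 called, with Ppargc1b at 2.30, the polymerase Polg at 0.73 and Ssbp1 at -0.45.

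Among 16 regulators of TOP messages and of ribosome synthesis 0 passed, and the median was 0.35. Larp1 had 203.1, 120.3 and 206.9 CPM in Nrp1 high, against 22.8, 139.4 and 91.3 CPM in Nrp1 low (log2 difference 1.07 ± 0.56 SE, edgeR adjusted p = 0.458). It too was lowest in Nrp1 low replicate 1, with the groups overlapping. Mtor had 0.56 ± 0.33 and Myc -0.37 ± 0.39. Mxd1, an antagonist of Myc, had 14.6, 18.7 and 21.3 CPM in Nrp1 high, against 30.6, 49.4 and 37.3 CPM in Nrp1 low, with no overlap (-1.10 ± 0.27, adjusted p = 0.203). Mxi1, of the same family, had -0.57 and Tsc1, an inhibitor of mTORC1, 0.53.

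Lists of markers of other cells were mixed: some sums parted the groups, and those of the erythroid and B cell lists overlapped. Of 17 neutrophil granule genes 13 were lower in Nrp1 high, beside 0.676% of all genes, with a median log2 difference of -2.43. Their summed level was 9847 to 12611 CPM in the Nrp1 high libraries and 54781 to 87961 CPM in the Nrp1 low libraries, with no overlap, and 0 of the 17 were at 0 in any library. Of 11 platelet genes 3 were lower (median -1.80, summed 19.3 to 27.1 CPM in Nrp1 high and 73.3 to 87.7 CPM in Nrp1 low), and of 11 T and NK genes 1 was lower, Nkg7 (median -0.36, summed 89.0 to 138.9 CPM in Nrp1 high and 210.6 to 294.1 CPM in Nrp1 low). Without Nkg7, left out after its values were seen, the T and NK sums overlapped, at 49.0 to 76.9 CPM in Nrp1 high and 71.4 to 107.4 CPM in Nrp1 low. Of 12 erythroid genes 0 passed (median -0.37, summed 3682 to 4430 CPM in Nrp1 high and 3794 to 6724 CPM in Nrp1 low). The 10 B cell genes (median -0.13, summed 911.0 to 1084 CPM in Nrp1 high and 970.5 to 1345 CPM in Nrp1 low) and the 6 plasma cell genes (-0.30, summed 266.0 to 382.1 CPM in Nrp1 high and 383.2 to 596.1 CPM in Nrp1 low) also had 0 called. Their part in the ribosomal values was not tested. In bulk RNA fewer cells of a type and less RNA per cell cannot be told apart. Whether the sorted monocytes themselves made some messages of these lists, such as the neutrophil granule genes, was not tested.

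The third comparison used open chromatin at the promoters, as log2 folds of Nrp1 high over Nrp1 low in the authors' deposited table. That table ties 82 promoter regions to 75 cytosolic genes, of which 0 passed an FDR of 0.05 in either direction in the authors' deposited table, beside 1.78% of all 19352 promoter regions higher and 4.07% lower. The median fold in the authors' deposited table was 0.04 for the cytosolic regions, with 52 above 0 and 30 below, and -0.03 for 67 regions of 64 mitochondrial genes. Of those mitochondrial regions 29 were above 0 and 38 below. Over all promoter regions of the authors' deposited table the median was -0.06, with 7858 above 0 and 11494 below. In the authors' deposited table the lowest cytosolic FDR was 0.0509, at the start of Rps26 (chr10:128626449-128626848, GRCm38, log2 fold 0.29). The 1 mitochondrial promoter called in the authors' deposited table was that of Mrpl45 (chr11:97315549-97315948), more open in Nrp1 high (0.46, FDR = 0.0309). This was 1 of 67 regions, beside 1.78% of all promoter regions higher in the authors' deposited table. For the Mrpl45 message all high libraries lay below the low ones, as for 10.8% of all genes. That message did not pass the test (log2 difference -0.45 ± 0.22 SE, edgeR adjusted p = 0.447). Whether promoter and message moved apart was not tested.

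Promoter values of genes described above follow. In the authors' deposited table the promoter of Rps12 had a log2 fold of -0.11 (FDR = 0.510), that of Rpsa 0.02, that of Rpl27a 0.13, that of Rps2 0.27 (FDR = 0.207) and that of Rpl28 0.27 (FDR = 0.162). None of these passed, and Rps2 and Rpl28 lay above the upper quartile of the cytosolic regions, 0.13. Of the mitochondrial genes, Mrpl55 had 0.11, Mrpl41 -0.16, Mrps9 0.02 and Mrpl19 -0.05 at their promoters in the authors' deposited table. Outside promoters, the authors' deposited table tied 15 regions to cytosolic and 27 to mitochondrial genes. None of the first was called, and of the second 2 were higher and 2 lower in Nrp1 high, beside 3.27% and 5.82% of all regions outside promoters. In the authors' deposited table these were an intron of Mrps35 (chr6:147051767-147052166, log2 fold 1.13, FDR = 0.000131) and intergenic regions nearest to Mrpl58 (0.61), Mrpl23 (-1.68) and Mrpl30 (-0.87).

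**Figure D5:**
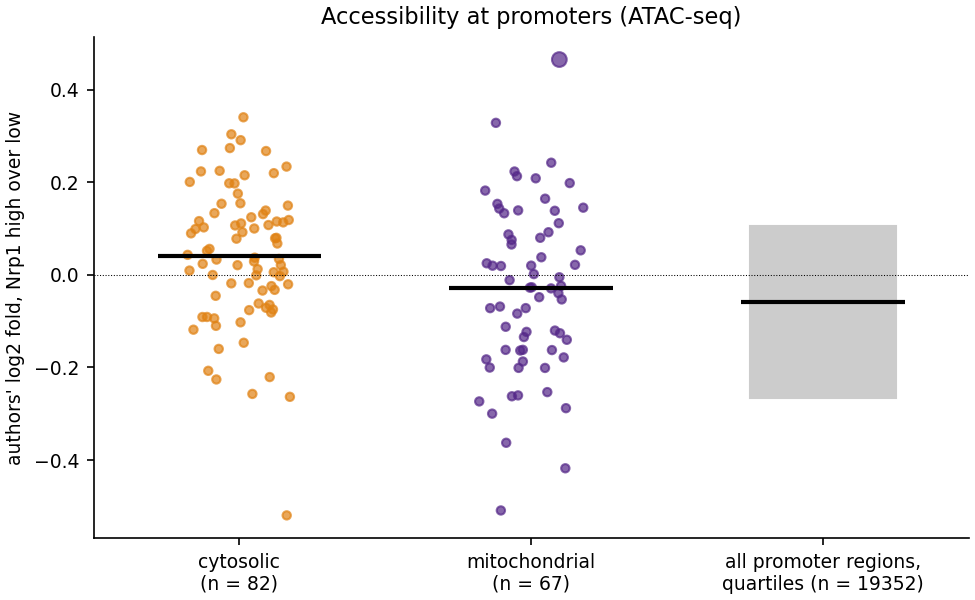
Points give the log2 fold of Nrp1 high over Nrp1 low in the authors' deposited table for promoter regions of cytosolic (82) and mitochondrial (67) genes, with the larger point passing an FDR of 0.05, black lines at the medians and a grey box for the quartiles of all 19352 promoter regions. The medians are 0.04, -0.03 and -0.06.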

How the data were processed

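RNA came from low-input template-switching libraries, per the labels' protocols. The authors deposited estimated counts per gene. HISAT2 and StringTie are among the tools, and GRCm38 the build, in the submitters' processing notes. Strand was not stated. The value 4 was 1.22 to 1.53 times as frequent as the mean of 3 and 5, so the scale of a count, and with it counting error, is uncertain. For ATAC-seq the authors deposited their comparison of 40796 regions, as log2 folds with p-values and FDRs, with no value per library used here, so depth is unknown; the direction, high over low, rests on the table's name in the labels, which name DESeq2 where the table names edgeR.

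Counts were filtered (filterByExpr) and TMM-scaled, and edgeR 4.0.16 (R 4.3.3) gave the test (quasi-likelihood, robust, Benjamini-Hochberg over all genes, threshold 0.05); fold changes are log2, Nrp1 high minus Nrp1 low. The code was tested on simulated data. Single genes were also compared by exact permutation, two-sided, of log2(CPM + 1). Alternatives included DESeq2 1.42.0 and limma-voom (limma 3.58.1). Members and gene lists were chosen with earlier results of these data known, and the monocyte list after the data were seen. Genes named by rule were those of lowest p, of extreme change and of highest CPM in each ribosome, stalk genes, Rpsa, paralogs with parents, the 3 of lowest p in each other list, and Nrp1, Myc, Mtor and Larp1. Levels per transcript length were not computed, so levels are compared between libraries only. Samples were grouped by their titles. Some genes named by rule are not reported here.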

Additional observations from a re-analysis of the deposited data

How the results depend on the processing

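No member passed the test under any alternative run (lowest adjusted p over them 0.152). The replicate numbers gave no sign of pairing: deviations of same-numbered libraries correlated at -0.24, -0.24 and 0.02. With so few libraries these values cannot exclude a pairing. With the replicate block 0 of all genes were called, against 106 without it and 403 with DESeq2. The cytosolic median was 0.41 and the mitochondrial -0.28 under the block. Leaving out 1 library gave medians of 0.12 to 0.71 (cytosolic), -0.44 to -0.17 (mitochondrial) and 0.37 to 1.1 (cytosolic minus mitochondrial, 0.74 with all libraries). Leaving out both first replicates gave a difference of 0.14, and a difference in cytosolic share of 0.44 percentage points, against 1.70 with all libraries. Library totals in place of TMM moved the median of all genes by 0.19 and left 54 of 78 mitochondrial genes below 0.

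At an FDR of 0.01 the called mitochondrial promoters were 0 in place of 1. A pyrimidine run within 30 bases was at 65.8% of cytosolic and 30.7% of mitochondrial starts.

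Single genes near 0 changed sign, and the cause was not tested. Leaving out 1 library gave Mrpl24 -0.15 to 0.33, Mrpl38 -0.10 to 0.30, Rpl13 -0.070 to 0.28, Rpl22l1 -0.052 to 0.51, Rpl36al -0.37 to 0.089, Rps27 -0.25 to 0.15 and Rps27l -0.34 to 0.011 (log2). With library totals Mrpl33 was 0.019, Rpl36al 0.033, Rps27 0.12 and Rps27l 0.029. Without both first replicates Mrpl24 was -0.23, Mrpl28 0.049, Rpl13 -0.12, Rpl22l1 -0.15 and Rpl36a -0.017.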
